A study of Mus musculus with 6 samples.

Results

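Expression of the chaperones of the endoplasmic reticulum was followed in LSK cells, the Lin-Sca-1+c-Kit-high fraction of mouse bone marrow enriched for stem cells and multipotent progenitors of the blood, after acute deletion of Ctcf. The genes are 10 chaperones and co-chaperones of the unfolded protein response, listed by name: Hspa5, Hyou1, Hsp90b1, Dnajb9, Dnajc3, Sdf2l1, Pdia4, Creld2, Manf and Calr. A gene was measured by its brightest probe set that carries 1 gene symbol, which gave a value for 9 of the 10, among 22180 genes measured. Pdia4 had 1 probe set only, and it carries a microRNA symbol as well, so the level of Pdia4 was not analysed here. Each of the 9 had 1 probe set, and all 9 were brighter than the median gene on all 6 arrays.

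The 6 samples were 3 of WT mice and 3 of mice labelled Ctcf conditional KO, hereafter the knockout, all male and 8 weeks old, each hybridised to 1 Affymetrix array. Tamoxifen was common to both groups, at 2 mg daily over 3 days, with marrow collected 24 hours after the last dose. The labels call the controls WT, while the series design speaks of CreER mice in their place; the sources used here do not give the promoter that drives the recombinase, the exons removed or whether controls carried it. Each array is labelled a biological replicate, with no word on whether it holds 1 mouse or a pool.

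Proteins destined for the cell surface or for secretion are folded in the lumen of the endoplasmic reticulum. When unfolded protein accumulates there, the sensors Ern1 (IRE1), Eif2ak3 (PERK) and Atf6 start the unfolded protein response, in which the transcription factors XBP1, ATF4 and cleaved ATF6 raise transcription of chaperones, of export and degradation factors and of the stress factor Ddit3 (CHOP). Haematopoietic stem cells make protein slowly and are known to be sensitive to misfolded protein, whereas plasma cells and granule-making myeloid progenitors carry a large secretory load.

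The promoters are printed first, because they show the regulatory sequence that several of these genes share. The endoplasmic reticulum stress element (ERSE) consists of a CCAAT box, bound by NF-Y, and a CCACG box, bound by ATF6 or XBP1, with a spacer of 9 bases of any kind between the boxes. RefSeq promoter windows of GRCm38.p6, each of 300 bases from 250 before the start site, were matched by symbol for 8 of the 10 genes, all but Manf and Hyou1. On either strand 5 of the 8 windows held the element, against 39 of all 32851 windows, or 0.119%. The element was defined on promoters of chaperones such as Hspa5, so its presence here is a description and no independent finding. The stretches below run 5′ to 3′ on the gene's own strand, with 20 bases on either side of the match. Capitals mark the fixed bases of the element; where the element lies on the opposite strand it reads CGTGG first and ATTGG second.
Hspa5: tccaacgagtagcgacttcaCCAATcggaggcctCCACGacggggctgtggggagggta
Hsp90b1, distal match: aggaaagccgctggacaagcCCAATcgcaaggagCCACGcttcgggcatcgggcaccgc
Hsp90b1, proximal match: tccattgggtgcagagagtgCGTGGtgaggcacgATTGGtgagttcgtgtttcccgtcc
Dnajc3: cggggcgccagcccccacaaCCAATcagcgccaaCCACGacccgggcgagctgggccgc
Creld2: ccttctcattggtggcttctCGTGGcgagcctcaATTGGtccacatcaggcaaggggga
Calr: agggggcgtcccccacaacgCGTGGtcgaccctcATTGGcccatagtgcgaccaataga
Pdia4: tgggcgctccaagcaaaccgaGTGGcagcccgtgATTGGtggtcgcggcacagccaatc

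With the first transcribed base counted as 0, the match in Hspa5 ran from -65 to -47, the nearest to a start site of all. The stretch printed for Hspa5 lies at chr2:34772005-34772063 on the plus strand. Hsp90b1 was the only one of the 8 with a pair of matches, from -212 to -194 and, on the opposite strand, from -107 to -89. Its stretches lie at chr10:86705618-86705676 and chr10:86705513-86705571, the gene being on the minus strand. In Dnajc3 the match ran from -105 to -87 (chr14:118937807-118937865, plus strand). In Creld2 it ran from -126 to -108 on the opposite strand (chr15:88819500-88819558, gene on the plus strand). In Calr it ran from -162 to -144, also on the opposite strand (chr8:84847055-84847113, gene on the minus strand). Pdia4 held the element only when any base was accepted in the last place of the CCACG box, from -108 to -90 (chr6:47813582-47813640, gene on the minus strand). That looser form, which includes every match of the strict one, was in 6 of the 8 windows and in 0.365% of all. The windows of Dnajb9 and Sdf2l1 held neither form, which says only that these letters were not in these windows. Other motifs searched on both strands, ERSE-II (ATTGG, any base, then CCACG), the core of the unfolded protein response element (TGACGTGG), an ATF4 composite site (TGATGCAAT) and a core of the CTCF motif (CCGCG, any base, GG, any base, then GGCAG), were in 0 of the 8 windows, against 0.0365%, 0.676%, 0.192% and 0.0365% of all windows.

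**Figure D1:**
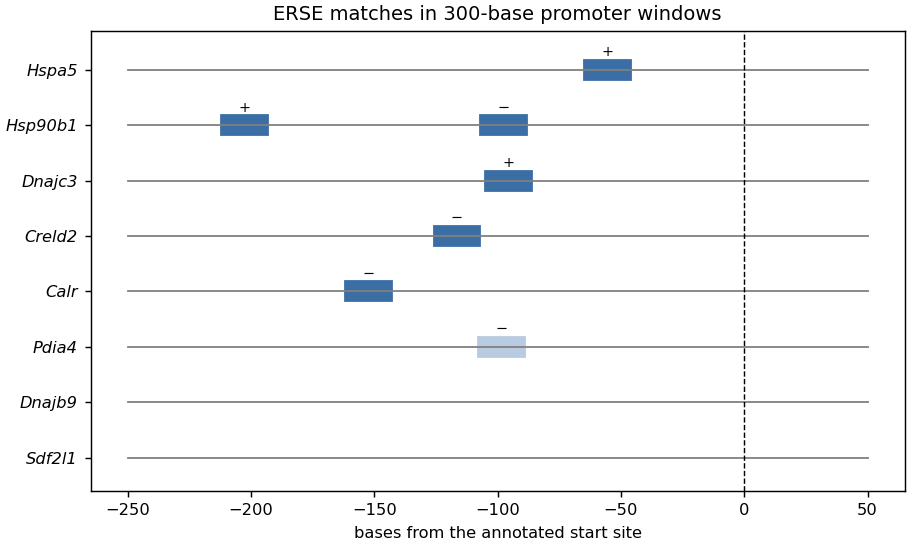
Position of ERSE matches in the promoter windows of 8 chaperone genes, in bases from the annotated start site (dashed line at 0). Dark boxes are matches of the strict element, the light box of Pdia4 is a match with any last base, and the signs give the strand relative to the gene; all lie upstream, between -212 and -47.

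Knockout and WT were compared to see what acute loss of Ctcf does to expression in LSK cells, the one contrast that the design holds. No chaperone gene changed by the test: 0 of 9 passed an adjusted p of 0.05 (limma, Benjamini-Hochberg over all genes; adjusted p between 0.56 and 0.99), where 0.0721% of all genes did. Differences were positive for 4 genes and negative for 5, with a median of -0.01, beside a median of 0.02 over all genes and of 0.04 over genes brighter than the median gene. At an unadjusted p under 0.05 there was 1 of 9, Sdf2l1, and it was higher, where 5.03% of all genes were higher and 8.11% passed in either direction. Sdf2l1 was also the only one of the 9 whose groups did not overlap, where 7.96% of all genes lay wholly higher and 13.3% did not overlap in either direction. For all 9 genes the larger of the within-group ranges exceeded the difference between the groups.

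**Figure D2:**
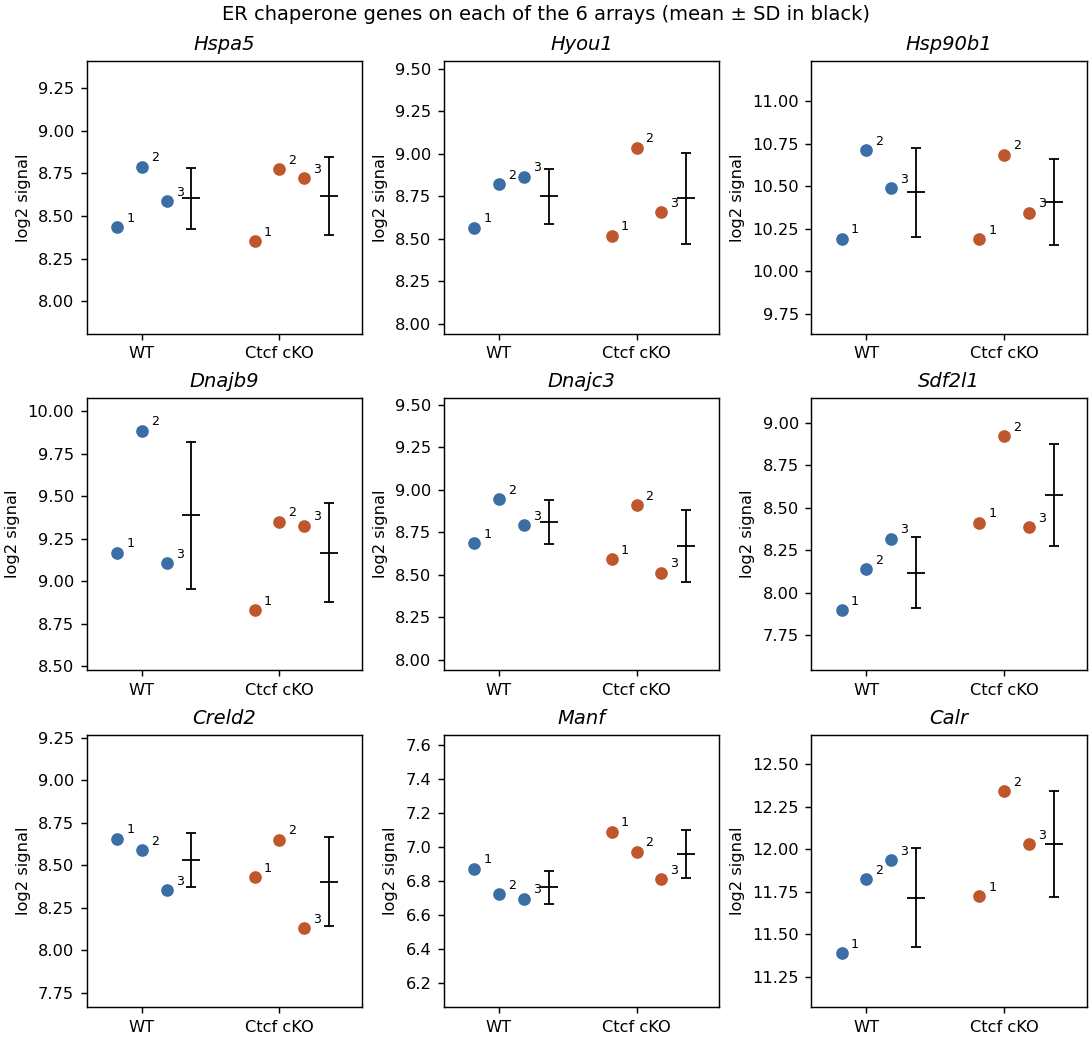
Log2 signal of the 9 measured chaperone genes on each array, numbered by replicate, with the group mean and SD in black (n = 3); all panels span the same height in log2 units. The groups overlap in all panels except that of Sdf2l1, where the knockout arrays start at 8.39 and the WT arrays end at 8.32.

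Hspa5 encodes BiP, the Hsp70-type chaperone at the centre of the network, which holds unfolded chains and keeps the stress sensors inactive. Its log2 levels were 8.43, 8.79 and 8.59 in WT replicates 1 to 3 and 8.35, 8.77 and 8.72 in the knockout. The groups overlapped almost fully, and in both of them replicate 1 was the lowest and replicate 2 the highest. The difference was 0.01 (SE 0.15, limma adjusted p = 0.99), negative at -0.05 after a further quantile normalization and at -0.04 with arrays centred on the brighter genes. Its 95% interval of -0.33 to 0.35 corresponds to 0.798 to 1.28 times the WT level.

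Hyou1 encodes GRP170, a large Hsp70 relative that exchanges the nucleotide of BiP. It stood at 8.57, 8.82 and 8.87 in WT and at 8.52, 9.04 and 8.66 in the knockout, so the knockout arrays held both the lowest and the highest value. The difference was -0.01 (SE 0.16, limma adjusted p = 0.99), with an interval of -0.37 to 0.34.

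Hsp90b1 encodes GRP94, the Hsp90 of the endoplasmic reticulum, which folds integrins and Toll-like receptors. Its levels were 10.19, 10.71 and 10.49 in WT and 10.19, 10.69 and 10.35 in the knockout. Replicate 1 was the lowest and replicate 2 the highest in either group, at nearly the same values. The difference was -0.06 (SE 0.17, limma adjusted p = 0.96), with an interval of -0.45 to 0.33.

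The J-domain co-chaperones hand substrates to BiP and start its ATP hydrolysis. Dnajb9 (ERdj4), which also brings BiP to the sensor IRE1, stood at 9.17, 9.89 and 9.11 in WT and at 8.83, 9.35 and 9.33 in the knockout. WT replicate 2 was far above the remaining WT arrays; without it the difference of -0.22 (SE 0.23, limma adjusted p = 0.87) became 0.03. Dnajc3 (p58IPK), known also as an inhibitor of the kinase PERK, was at 8.69, 8.95 and 8.79 in WT and at 8.59, 8.91 and 8.51 in the knockout. A pair of knockout arrays lay below all WT arrays and the other one near the top of the WT range. The difference was -0.14 (SE 0.14, limma adjusted p = 0.86).

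Sdf2l1 encodes a lumenal partner of the J-domain protein Dnajb11 that keeps misfolded chains soluble. Its log2 levels were 7.90, 8.14 and 8.32 in WT and 8.41, 8.92 and 8.39 in the knockout. All 3 knockout arrays lay above all 3 WT arrays, and knockout replicate 2 stood apart from the other knockout arrays. The means were 8.12 ± 0.21 and 8.57 ± 0.30 (SD, n = 3 each), a difference of 0.45 (SE 0.17) or 1.37-fold, with an interval of 0.06 to 0.85. The limma p was 0.0281 before and 0.56 after adjustment, and an exact permutation test, two-sided, gave 0.1, its minimum with 3 arrays on each side. Of all genes 2.04% had a larger difference. Without knockout replicate 2 the difference was 0.28 (unadjusted p = 0.0972), and without WT replicate 1 or WT replicate 2 the unadjusted limma p was 0.103 or 0.0539.

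Creld2 encodes an EGF-like protein with disulfide isomerase activity. It stood at 8.66, 8.59 and 8.35 in WT and at 8.43, 8.65 and 8.13 in the knockout. Replicate 3 was the lowest in both groups, unlike in Hspa5 and Hsp90b1. The difference was -0.13 (SE 0.15, limma adjusted p = 0.89).

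Manf encodes a partner of BiP that slows nucleotide exchange and is also secreted as a trophic factor. Its levels were 6.87, 6.72 and 6.70 in WT and 7.09, 6.97 and 6.81 in the knockout. A pair of knockout arrays lay above all WT arrays, and knockout replicate 3 lay below WT replicate 1. The difference was 0.20 (SE 0.12, limma adjusted p = 0.72), with an interval of -0.07 to 0.46.

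Calr encodes calreticulin, the calcium-binding lectin that folds glycoproteins, myeloperoxidase among them. Its levels were 11.39, 11.82 and 11.94 in WT and 11.72, 12.34 and 12.03 in the knockout. All 3 knockout arrays lay above the WT mean, but knockout replicate 1 was below a pair of WT arrays. The difference was 0.31 (SE 0.19, limma adjusted p = 0.73), with an interval of -0.12 to 0.75. It was smaller without WT replicate 1, at 0.15, and without knockout replicate 2, at 0.16.

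**Figure D3:**
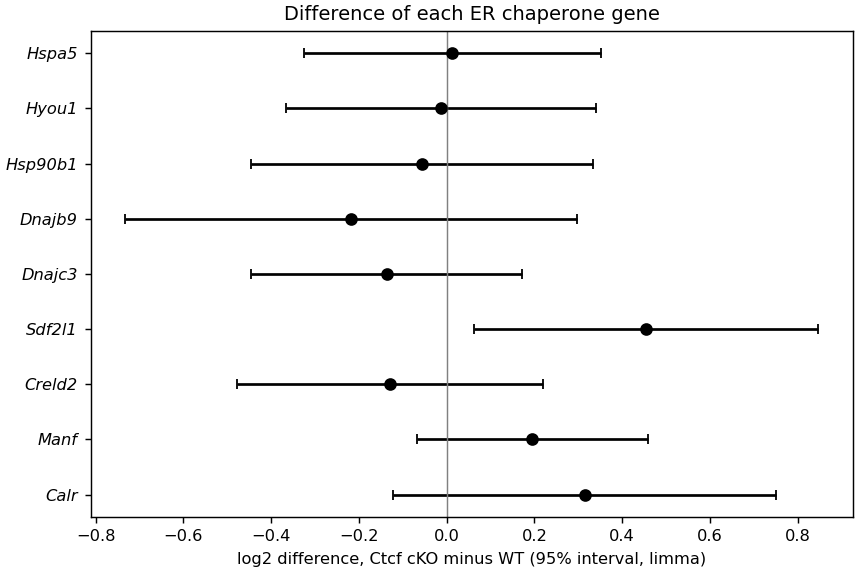
Log2 difference, knockout minus WT, of each measured chaperone gene with its 95% interval from limma, unadjusted for the number of genes. The interval of Sdf2l1, 0.06 to 0.85, is the only one of the 9 that leaves out 0.

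The levels also varied together over the arrays, within groups as well as between them. When each gene was set against its own mean over the 6 arrays, knockout replicate 2 was above that mean in 9 of 9 genes, with a median of 0.18, and WT replicate 2 in 6 of 9, with a median of 0.12. WT replicate 1 and knockout replicate 1 were each below it in 7 of 9, with medians of -0.18 and -0.15. WT replicate 3 and knockout replicate 3 lay near it, at -0.02 and -0.05. The high place of knockout replicate 2 and the low place of WT replicate 1 were not particular to the chaperones. Knockout replicate 2 also had the highest median of other folding factors of the endoplasmic reticulum (0.23), of its degradation (0.16) and translocation (0.18) genes, of cytosolic (0.17) and mitochondrial chaperones (0.26) and, at 0.05, of all genes brighter than the median gene. WT replicate 1 had the lowest median of the other folding, translocation, cytosolic and mitochondrial lists and of the brighter genes. It was not low for degradation, at -0.002. The list of sensors, transcription factors and other regulators of the response followed neither shift, at 0.008 on WT replicate 1 and 0.005 on knockout replicate 2. The high place of WT replicate 2 was less shared. Its median was -0.03 for the other folding and translocation lists, -0.12 for cytosolic and -0.15 for mitochondrial chaperones, and 0.05 for degradation. The highest value of a gene was on replicate 2 of either group in 7 of 9 genes, and the lowest on replicate 1 of either group in 6 of 9. The shares of all genes placed in these ways were not analysed here, so the counts do not set the chaperones apart. The median SD between replicates, pooled over the groups, was 0.22 for the 9 genes and 0.15 for genes brighter than the median gene, and 8 of the 9 were above the latter. Hspa5, Hyou1 and Hsp90b1 followed the median pattern most closely, with root mean square differences from it of 0.08, 0.08 and 0.09 on the log2 scale, then Dnajc3 at 0.10. Sdf2l1, Dnajb9, Manf, Calr and Creld2 were farther from it, at 0.25, 0.25, 0.21, 0.21 and 0.20. Each of the 9 genes entered that median, so its closeness to the pattern is partly built in.

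Markers of cells with a large secretory load also differed between the arrays. In the list of 14 measured plasma and B cell markers 14 of 14 differences were negative, with a median of -0.71. Its median relative to each gene's mean was 0.72, 0.76 and -0.33 on WT replicates 1 to 3 and -0.21, 0.01 and -0.82 in the knockout. WT replicate 1 was high for these markers and the lowest for the chaperones, and knockout replicate 2 was near the mean for the markers and the highest for the chaperones. WT replicate 2 was the highest for the markers and the next to highest for the chaperones, and knockout replicate 3 was the lowest for the markers and below the mean for the chaperones. Ighm, the heavy chain of IgM, averaged 13.85 ± 0.27 over WT and 13.21 ± 0.41 over knockout arrays (SD, n = 3 each, limma adjusted p = 0.51). Jchain, which links antibody polymers, averaged 12.50 ± 0.59 and 11.61 ± 0.69 (limma adjusted p = 0.59). In the list of 14 granulocyte and myeloid progenitor markers 10 differences were positive, with a median of 0.37, and knockout replicate 2 was the highest array at 0.53, as it was for the chaperones. Elane, neutrophil elastase, was at 11.33 ± 0.33 and 12.54 ± 0.26 (limma adjusted p = 0.10). Mpo, myeloperoxidase, was at 10.95 ± 0.21 and 11.80 ± 0.32 (limma adjusted p = 0.22). Mature neutrophil markers went the other way, with 10 of 12 differences negative and a median of -0.43; their medians were 0.96, -0.39 and 0.30 on WT replicates 1 to 3 and 0.03, -0.16 and -0.55 in the knockout. Of 8 erythroid and megakaryocyte markers 7 were positive, with a median of 0.16. A positive difference was found for 54.7% of all genes and for 60.4% of those brighter than the median gene. No gene of these marker lists passed the test over all genes. The part of these markers in the chaperone values was not tested. In sorted cell pools, a different share of cells of a type and a different level of RNA per cell cannot be told apart.

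**Figure D4:**
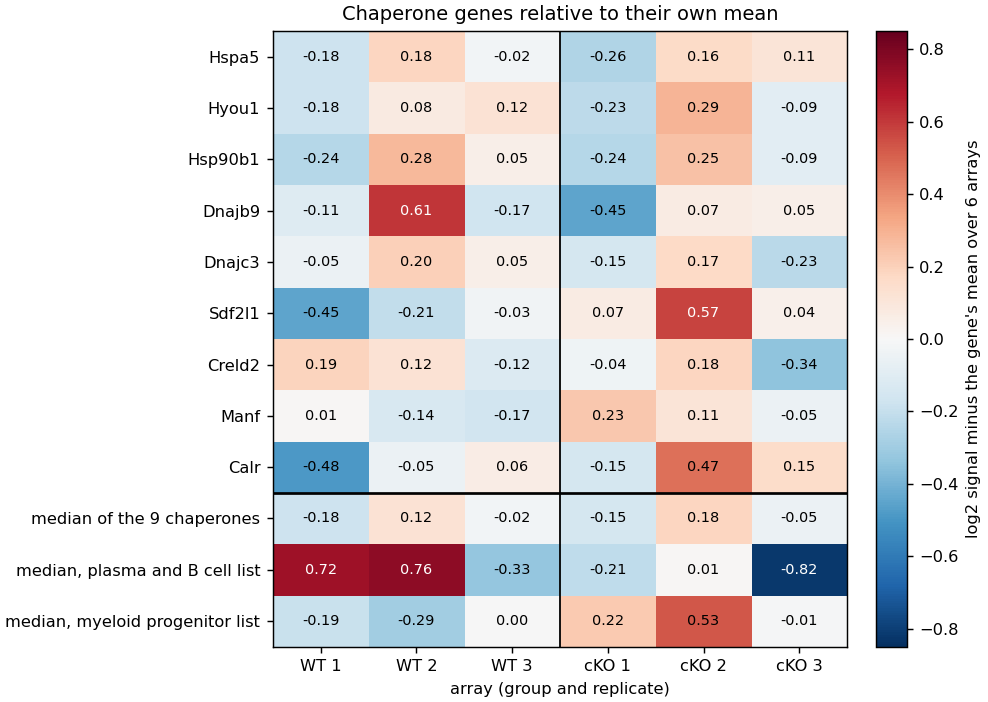
Log2 signal of each chaperone gene minus its own mean over the 6 arrays (rows above the line), and the medians of the 9 chaperones and of 2 marker lists (rows below), by array. Knockout replicate 2 is above 0 in all 9 chaperone rows, and the plasma and B cell row runs from 0.76 on WT replicate 2 to -0.82 on knockout replicate 3.

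The list of sensors, transcription factors and other regulators of the response, among them proteases, phosphatase subunits and the downstream enzyme Chac1, had no gene past the test either: 0 of 25 did over all genes, with 10 differences positive, 15 negative and a median of -0.04. Without adjustment 5 of the 25 were lower at a limma p under 0.05 and 0 were higher, where 3.08% of all genes were lower and 5.03% higher. Of the sensors, Ern1 had a mean of 10.56 ± 0.33 over the WT arrays and 10.09 ± 0.18 over the knockout arrays (SD, n = 3 each), a difference of -0.47 (SE 0.18, limma adjusted p = 0.56). Eif2ak3 and Atf6 differed by -0.09 (SE 0.12) and -0.06 (SE 0.11). Xbp1, whose mRNA is spliced by IRE1 and which plasma cells express strongly, was at 10.67, 10.69 and 9.94 in WT and at 10.14, 10.02 and 9.61 in the knockout. Its difference was -0.51 (SE 0.22, limma adjusted p = 0.61), and replicate 3 was the lowest in both groups, as for the plasma and B cell markers, a list that includes Xbp1. Atf4 differed by -0.15 (SE 0.14).

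Groups did not overlap for Ddit3, Chac1 and Creb3l2, all lower in the knockout, where 5.32% of all genes lay wholly lower. Ddit3, the stress factor CHOP, was at 7.40, 6.98 and 7.07 in WT and at 6.81, 6.66 and 6.73 in the knockout, a difference of -0.42 (SE 0.13, limma adjusted p = 0.48). Chac1, a glutathione-degrading enzyme downstream of ATF4 and CHOP, differed by -0.40 (SE 0.13, limma adjusted p = 0.48). Creb3l2, a membrane-bound transcription factor related to ATF6, differed by -0.52 (SE 0.15, limma adjusted p = 0.43). Nfyb, a subunit of the CCAAT-binding NF-Y, differed by 0.23 (SE 0.11), and Mbtps2, a protease that cleaves ATF6, by 0.18 (SE 0.10). Both had knockout arrays wholly above WT arrays, where 7.96% of all genes did, and missed the test.

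Other folding enzymes of the endoplasmic reticulum had 24 of 32 differences positive, with a median of 0.10 and 0 passing the test. A positive difference was found for 54.7% of all genes and for 60.4% of those brighter than the median gene, to which 28 of the 32 belong. Of the 11090 genes brighter than the median gene, 1196 lay wholly higher in the knockout. Groups did not overlap for 6 of the 32, all higher, where 7.96% of all genes lay wholly higher. Those with the smallest p were Mogs, the first glucosidase of N-glycan trimming (0.50, SE 0.13, limma adjusted p = 0.36), Dnajc10, a disulfide reductase with a J-domain (0.45, SE 0.14, limma adjusted p = 0.46), and Tmx1, a membrane thioredoxin (0.39, SE 0.16, limma adjusted p = 0.59). For translocation and N-glycosylation 26 of 30 differences were positive, with a median of 0.10, and 28 of the 30 were brighter than the median gene. Knockout arrays lay wholly above WT arrays for 6 of the 30, beside the same 7.96% of all genes and 1196 of 11090 brighter genes. With arrays centred on the brighter genes the medians of both lists fell, from 0.10 to 0.04 each, and with 1 array left out they lay between 0.06 and 0.19 for the other folding enzymes and between 0.04 and 0.16 for translocation. These included Dad1 (0.29, SE 0.11) and Ddost (0.31, SE 0.13), subunits of the oligosaccharyltransferase, and Ssr2 of the translocon-associated complex (0.37, SE 0.15), each with a limma adjusted p between 0.56 and 0.59. Endoplasmic reticulum-associated degradation, which removes chains that fail to fold, had 10 positive and 10 negative differences, with a median of -0.01. Its members Derl2, a channel subunit, and Nploc4, a cofactor of the extracting ATPase, had knockout arrays wholly above WT arrays, with differences of 0.22 (SE 0.11) and 0.12 (SE 0.11). No gene of either list passed the test over all genes.

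**Figure D5:**
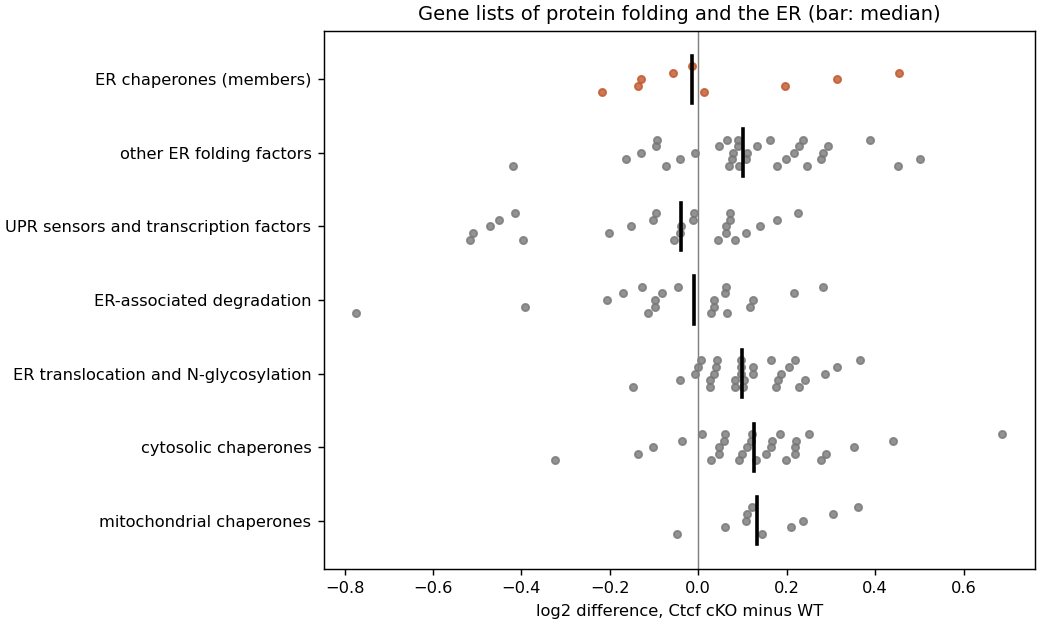
Log2 difference, knockout minus WT, of every measured gene of 7 lists, 1 point per gene, with the list median as a bar; vertical offsets within a list only separate points. The chaperone and degradation medians lie at -0.01, and those of the other folding and the translocation lists at 0.10, which became 0.04 for both with centring on the brighter genes.

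The genes that share the promoter element were looked at apart from the chaperone list. The strict ERSE was in a window of 37 genes, of which 29 had a value, and 24 of those are not among the 10 chaperones. Of these 24, 10 were higher and 14 lower in mean level in the knockout, the median difference being -0.03, and 0 passed the test or had an unadjusted limma p under 0.05. Their groups did not overlap for 1 gene higher and 2 lower, where 13.3% of all genes did not overlap. Many of the 24 were dimmer than the median gene, at 6.29, so these counts do not describe well-expressed genes alone. The wholly lower genes, Calr4 and Gm20560, had WT means of 3.60 and 4.15, and the wholly higher one, Zfp57, of 6.94. Among the 24, named here after their values were seen, were the folding factors Canx, a membrane-bound relative of calreticulin (0.13, SE 0.13), and Pdia6, a disulfide isomerase (0.28, SE 0.20), and the degradation factors Syvn1 (-0.17, SE 0.12) and Derl3 (-0.77, SE 0.38). Derl3 also belongs to the plasma and B cell list.

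Among 10275 brighter genes outside the list, those with a profile over the 6 arrays closest to the median chaperone profile were Sec63, Brd7, Mia3, Acad8 and Laptm5, with root mean square differences of 0.0306, 0.0307, 0.036, 0.0361 and 0.0361 on the log2 scale. Sec63 is the J-domain subunit of the translocon that recruits BiP, and Mia3 loads cargo at exit sites of the endoplasmic reticulum. Of the 5, only Sec63 belongs to any of the gene lists used here, and Brd7 was as close as Sec63. Of the 10275 genes, 437 were as close to the median profile as Hspa5 or closer. Hspa5 entered that profile, being itself the median on WT replicates 1 and 3, and the 10275 did not, so the comparison is uneven. Sec63 lay at -0.17, 0.12 and -0.01 relative to its own mean in WT and at -0.15, 0.18 and 0.03 in the knockout.

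The target gene Ctcf was at 8.35, 8.59 and 8.73 in WT and at 7.58, 7.78 and 7.86 in the knockout, a difference of -0.82 (SE 0.13, limma adjusted p = 0.10), and the groups did not overlap; a probe set outside the deleted part would not follow the deletion. Array medians lay between 5.99 and 6.07, and Pearson correlations between arrays, taken across genes that are no independent replicates, between 0.979 and 0.989. Of the sort markers, Kit averaged 10.38 ± 0.24 over WT and 10.15 ± 0.05 over knockout arrays, wholly lower in the knockout (limma adjusted p = 0.73), while Ly6a was not analysed here. Of 9 measured sort and stem cell markers 8 had a negative difference, Flt3 at -0.42 among them, and Slamf1 was wholly higher at 0.33. Of all genes 54.7% had a positive difference, 5.32% lay wholly lower and 7.96% wholly higher. None of the 9 markers passed the test. Of 10 measured lineage markers 3 were brighter than the median gene. As precision is limited by 3 arrays a group, the missed calls do not show that the chaperone levels were the same; the intervals above give the sizes the data allow.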

How the data were processed

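The authors deposited log2 probe set summaries made by RMA with the R package oligo, per the submitters' processing notes; their versions and the summary level are not named there. RMA normalizes by quantiles and compresses differences of dim probe sets. Of 41345 probe sets, GEO's platform annotation gave 23521 a single symbol; the brightest by the mean of 6 arrays stood for each of 22180 genes, with no filter on low values. The groups were compared with limma 3.58.1 in R 4.3.3 (lmFit, eBayes, group as the only term), Benjamini-Hochberg adjusted over all genes. Intervals are 95% and come from the moderated fit. In simulated data over 22180 genes this fit recovered 19.7% of log2 changes of 0.5, 95.2% of changes of 1 and 100% of changes of 2, and 6.41% of its calls were false. The simulation changed 200 genes and drew independent noise for each gene from its moderated variance. It left out shifts that genes share between arrays. The rates are averages over changed genes of any kind and need not hold for the chaperones, which varied more between replicates than most. Promoter windows are RefSeq's, searched for exact letters. The 10 genes, the related lists and the motifs were chosen with earlier results of these data known, so lists are described by counts and medians, with no set test. Named genes of each related list are up to 3 per direction with the smallest p among those whose groups do not overlap, plus Ctcf, the sensors and main factors, and Ighm, Jchain, Elane, Mpo, Kit and Ly6a; also named were the 5 genes nearest in profile. The limma p-values set the difference between the groups against the moderated spread between these arrays within the groups. Protein features of the list, planned, were not analysed here. Alternatives were trend and robust eBayes settings, weights per array, brighter genes alone, further quantile normalization, centring, probe set means, a replicate block, each array left out, every probe set and a threshold of 0.1.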

Additional observations from a re-analysis of the deposited data

How the results depend on the processing

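None of the 9 chaperone genes passed in any of the 15 alternatives, with between 0 and 2 at an unadjusted p under 0.05 by limma. Their median difference, run in 13 of the alternatives, lay between -0.16 and 0.10. The 16 calls over all genes became 25 with trend and robust settings, 26 at a threshold of 0.1, 7 with the replicate number as a block and between 0 and 8 with 1 array left out; without knockout replicate 1 the count was 0, with 1725 genes at an unadjusted p under 0.05 by limma. Sdf2l1, Manf and Calr stayed positive and Dnajc3 negative in all 13 alternatives run for single genes, with ranges of 0.28 to 0.55, 0.13 to 0.27, 0.15 to 0.47 and -0.26 to -0.06. Differences near 0 changed sign: Hspa5 was -0.0463 after a further quantile normalization, -0.0430 with centring and between -0.0719 and 0.145 with 1 array left out. With 1 array left out Hsp90b1 lay between -0.196 and 0.0672, Dnajb9 between -0.358 and 0.0318, Creld2 between -0.253 and 0.00757 and Hyou1 between -0.163 and 0.0957. The median of the sensors and other regulators was -0.095 with centring and between -0.078 and -0.016 with 1 array left out. That of the other folding enzymes was 0.044 with centring and between 0.056 and 0.186 with 1 array left out, and that of translocation 0.043 and between 0.035 and 0.157. Same-numbered arrays of the groups had deviations correlated at 0.29, 0.02 and -0.14, and differently numbered ones at values between -0.25 and 0.25. With 3 arrays a group the deviations depend on each other, so these values cannot decide whether the numbers pair the samples. With the replicate block Calr had an unadjusted limma p of 0.0415 and an adjusted p of 0.589. The cause of these shifts was not tested.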

Other observations

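Chaperones outside the endoplasmic reticulum had mostly positive differences, with none past the test. Of 30 measured cytosolic chaperones 26 were positive, with a median of 0.13 and groups wholly higher in 4, and of 10 mitochondrial ones 9 were positive, with a median of 0.13 and groups wholly higher in 0. Of all genes 54.7% were positive and 7.96% wholly higher. Of those brighter than the median gene, to which 27 of the 30 and all 10 belong, 60.4% were positive and 1196 of 11090 wholly higher. Among the cytosolic ones Hspa14, an Hsp70 relative that acts at the ribosome, was at 7.93, 7.99 and 8.04 in WT and at 8.37, 8.48 and 8.43 in the knockout, a difference of 0.44 (SE 0.10, limma adjusted p = 0.27). Cct5, a subunit of the chaperonin that folds actin and tubulin, differed by 0.22 (SE 0.13), and Dnajb1, a J-domain protein of the heat shock response, by 0.17 (SE 0.11). Whether these lists differ from the chaperones of the endoplasmic reticulum was not tested.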
